A study of Homo sapiens with 18 samples.

Results

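The 10 genes described here carry the symbol of a heterogeneous nuclear ribonucleoprotein (hnRNP) and were taken by name from the count tables, out of 26941 genes in all. They are *HNRNPA1*, its processed pseudogene *HNRNPA1P10*, *HNRNPA0*, *HNRNPA2B1*, *HNRNPA3*, *HNRNPC*, *HNRNPD*, *HNRNPH1*, *HNRNPK* and *HNRNPU*. *HNRNPA1* and *HNRNPA1P10* were chosen by their levels in these same samples, which were lower after *SOX11* knockdown, so their knockdown values are given as a description, without a test. The other 8 were added as relatives, to see whether they moved too. RNA was sequenced from 18 samples of 3 established B-cell precursor acute lymphoblastic leukemia lines, REH, 697 and RCH-ACV. Each line had 3 samples nucleofected with *SOX11* siRNA (300 nM) and 3 with a non-specific control siRNA, and all were collected after 48 h. Per the study's methods the 3 samples of a group are independent biological replicates. The knockdown was a partial and transient one: *SOX11* stood at 56.4% of control in REH, 53.0% in 697 and 62.7% in RCH-ACV.

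Proteins of the hnRNP families bind nascent RNA and act in splicing, in 3′ end formation, in mRNA export and in mRNA stability. The A and B proteins (*HNRNPA0*, *HNRNPA1*, *HNRNPA2B1*, *HNRNPA3*) are built of RNA recognition motifs and a glycine-rich tail, and *HNRNPA1* is best known as a repressor of exon inclusion that works against the serine/arginine-rich (SR) proteins. The C proteins package nascent RNA, HNRNPD (AUF1) binds AU-rich elements, HNRNPH1 binds G-runs, HNRNPK binds C-rich RNA, and HNRNPU (SAF-A) attaches chromatin to nuclear RNA.

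The long and short forms of *HNRNPA1* differ by exon 8, a coding exon in the glycine-rich tail, and the pseudogene descends from the short form. The *HNRNPA1* gene lies on chromosome 12 of hg19 from 54673977 to 54680872, on the plus strand. Exon 8 has 156 bases. The *HNRNPA1P10* locus lies on chromosome 19 from 11776884 to 11777845, on the minus strand, and 958 of its 962 bases (99.6%) are identical to the *HNRNPA1* transcript without exon 8.

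This likeness bears on what the counts mean, because the authors discarded reads that aligned to more than 2 locations. Of all 50-base windows of the *HNRNPA1* transcript, 59.9% had no other exact match in the genome, 3.3% had 1, and 36.8% had at least 2. These windows run over the annotated canonical transcript of 3744 bases, of which 2546 are 3′ UTR. The pseudogene and its flanks align with bases 24 to 1380 of the 3588 bases left without exon 8. Windows were not counted by region, so these shares need not hold for the coding part. For the *HNRNPA1P10* locus only 11.6% of windows had no other match, and 84.6% had at least 2. With windows of 75 bases the shares without another match were 63.6% and 22.1%, and the length of the sequenced reads is not given in the sources used here. In 50-base windows, *HNRNPA3* (64.4% of windows without another match), *HNRNPC* (66.4%) and *HNRNPK* (69.7%) also have copies elsewhere, whereas *HNRNPA0*, *HNRNPA2B1*, *HNRNPD*, *HNRNPH1* and *HNRNPU* had at least 94.9% of windows without another match. The genome was searched unspliced, so a pseudogene window that runs across an exon join of *HNRNPA1* did not count as matching that gene. The shares of *HNRNPA1P10* windows without another match may thus be too high. Reads with at least 2 other matches, as in most windows of the pseudogene, would have been discarded. Those kept at the pseudogene can still come from *HNRNPA1*. Counts of *HNRNPA1* and *HNRNPA1P10* are therefore uncertain as levels.

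The total count per sample lay between 7039505 and 16592565, with a median of 8759194, and every member had at least 1209 counts in every sample. All 10 members passed edgeR's filter on low counts in every line. The B-lineage markers *CD79A*, *CD79B*, *PAX5*, *EBF1*, *MME* and *CD22* were at 1 CPM (counts scaled to a common library size) or more in each line, while *VPREB1* was below 1 CPM in REH. The T-lineage genes *CD3D*, *CD3E* and *CD3G* summed to at most 0.199 CPM, *HBB* and *HBA1* were at 0, and the myeloid genes *MPO*, *LYZ*, *CD14* and *CSF1R* summed to 2.28 to 31.1 CPM. The summed level of these 7 B-lineage genes of the *SOX11* siRNA samples was 4267.4 to 4332.2 CPM against 3836.5 to 3971.5 CPM in REH controls, 1813.9 to 1850.8 against 1951.2 to 1982.5 CPM in 697, and 1891.1 to 2015.0 against 1858.9 to 1897.1 CPM in RCH-ACV. It did not move one way over the lines (the 2 ranges overlap in RCH-ACV), and its part in the results below was not tested. In bulk RNA, fewer cells with a transcript and less transcript per cell cannot be told apart.

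*HNRNPA1* was lower after *SOX11* knockdown in all 3 lines, which is how it came to be chosen. CPM within a line are scaled by edgeR's TMM factors over the 6 samples of that line. In REH the *HNRNPA1* level was 268.7, 268.4 and 281.1 CPM with *SOX11* siRNA and 317.1, 309.9 and 307.8 CPM with control siRNA. In 697 it was 297.0, 283.3 and 282.9 CPM against 429.2, 401.5 and 415.3 CPM. In RCH-ACV it was 246.8, 236.1 and 259.3 CPM against 306.3, 327.9 and 304.5 CPM. The groups did not overlap in any line, the largest difference was in 697 and the smallest was in REH. The log2 fold change was -0.19 ± 0.04 (SE, n = 3 + 3) in REH, -0.53 ± 0.05 in 697 and, for RCH-ACV, -0.34 ± 0.05.

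The counts at the pseudogene *HNRNPA1P10* followed those of its parent gene. Some of them can be reads of *HNRNPA1*, so they do not show whether the pseudogene's own transcript changed. The level at the pseudogene was 173.2, 166.8 and 180.6 CPM with *SOX11* siRNA against 207.1, 202.6 and 207.1 CPM in REH controls. In 697 the values were 192.9, 183.8 and 183.2 CPM against 279.8, 265.0 and 281.7 CPM, and in RCH-ACV 162.7, 156.1 and 167.5 CPM against 206.5, 223.2 and 211.9 CPM. Again no sample with *SOX11* siRNA reached a control sample. The log2 fold changes were -0.24 ± 0.04, -0.56 ± 0.05 and -0.40 ± 0.05 in the same order of lines. When the counts of gene and pseudogene were summed, the log2 fold changes came to -0.21 (REH), -0.54 (697) and -0.36 (RCH-ACV). Over the genes tested in every line, 1.24% (140 of 11311) had all *SOX11* siRNA samples below all controls in each line. Both *HNRNPA1* and *HNRNPA1P10* are among them, by the way they were chosen.

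Reads of exon 8 show the long form apart from the pseudogene. Overlapping RefSeq transcripts of a gene each have a row in the tables, and the rows repeat the reads of shared exons, so the row of the long form minus the row of the short form leaves the reads of exon 8. In 697 exon 8 had 13.3, 12.1 and 13.2 CPM with *SOX11* siRNA against 20.2, 19.4 and 20.5 CPM with control siRNA, and the groups did not overlap. RCH-ACV gave 7.87, 6.61 and 8.17 CPM against 10.9, 11 and 9.8 CPM, again without overlap. In REH the values were 10.6, 15.3 and 11.2 CPM against 13.3, 14.3 and 14.2 CPM, and replicate 2 with *SOX11* siRNA stood above every control. The mean level of exon 8 was 64.3% of control in 697, 71.7% in RCH-ACV and 88.8% in REH, where the whole gene stood at 69.3%, 79.0% and 87.6%. Of its own 50-base windows, 39.3% had no other exact match, 56.1% had 1 and 4.7% had at least 2. These levels rest on 62 to 177 exon 8 reads per sample. As a share of the long-form row, exon 8 made up 4.82% ± 0.119 (SD, n = 3) of the reads in 697 controls and 4.48% ± 0.2 with *SOX11* siRNA, 3.37% ± 0.163 against 3.05% ± 0.214 for RCH-ACV, and 4.48% ± 0.240 against 4.55% ± 1.0 for REH.

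**Figure D1:**
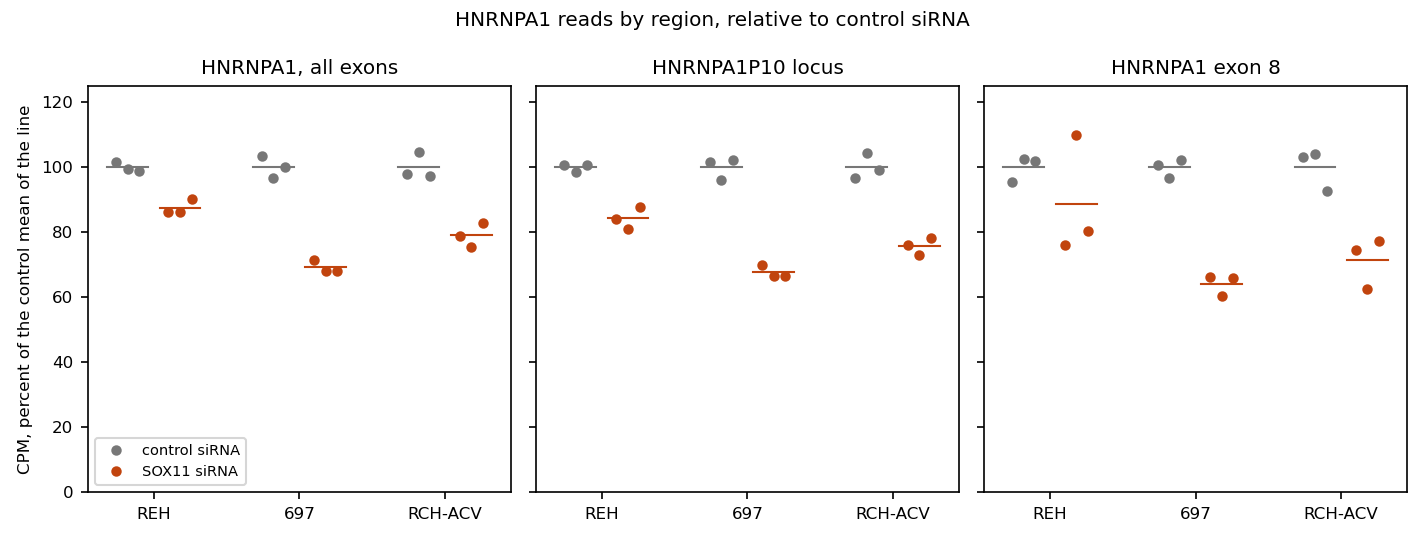
Each panel plots CPM as a percent of the line's control mean for the 18 samples (grey, control siRNA; orange, *SOX11* siRNA; short lines, means of 3). All *SOX11* siRNA samples lie below the controls for *HNRNPA1* and *HNRNPA1P10* in each line, and for exon 8 in 697 and RCH-ACV, while in REH 1 of 3 exon 8 values (15.3 CPM) lies above the controls.

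The 3′ UTR of *HNRNPA1* holds a 7-base word, GTGACGC, that had been picked earlier as common to the 3′ UTRs of genes lower in these samples, *HNRNPA1* among them, so its presence here is a description and not independent. Only the transcript strand was searched. The word starts at position 312 of the *HNRNPA1* 3′ UTR, occurs once in the 3′ UTR of *SOX11*, and occurs in none of the 3′ UTRs of the other 8 protein-coding members. Of 19386 genes with an annotated 3′ UTR, 280 (1.44%) hold it. The pseudogene's likeness to *HNRNPA1* goes on beyond its annotated locus (1344 of 1354 aligned bases, 99.3%), and the aligned stretch does not hold the word. The 3 sites are printed with the word, or the 7 bases aligned with it, in capitals.
HNRNPA1 (chr12:54678626-54678655, plus strand): acagtctgatcGTGACGCtgaataaatgtc
HNRNPA1P10 (chr19:11776559-11776588, minus strand): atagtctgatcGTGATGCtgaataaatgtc
SOX11, 3′ UTR: gataagatgtcGTGACGCaaagaaattgga
A match of these letters is not a site of action, and the sequence of the siRNA was not analysed here.

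*HNRNPA3*, which shares the paired RNA recognition motifs and glycine-rich tail of *HNRNPA1*, went the opposite way by a small amount. The gene lies on chromosome 2 of hg19 from 178077422 to 178088687. Its level in REH was 406.0, 391.9 and 406.7 CPM with *SOX11* siRNA against 370.3, 364.0 and 373.8 CPM with control siRNA. In 697 it was 432.1, 457.1 and 428.3 CPM against 388.1, 387.1 and 390.9 CPM, and in RCH-ACV 517.0, 502.3 and 488.8 CPM against 469.3, 483.6 and 476.5 CPM. Every *SOX11* siRNA sample was above every control of its line, in all 3 lines. Of the 11311 genes tested in every line, 0.628% (71) had this pattern, and *HNRNPA3* was the only one of the 8 relatives that did. The log2 fold change was 0.12 ± 0.03 in REH, which passed the test (edgeR quasi-likelihood F-test, Benjamini-Hochberg adjusted p = 0.0324 over 12787 genes). It was 0.18 ± 0.04 in 697 (adjusted p = 0.159) and 0.08 ± 0.04 in RCH-ACV (adjusted p = 0.235), which did not pass. In 1 fit over the 18 samples the value in 697 passed (adjusted p = 0.0092), and 189 genes passed there against 68 in the fit of 697 alone. Without *SOX11* siRNA replicate 3 the value in RCH-ACV was 0.09 (adjusted p = 0.044), and 2479 genes passed there against 973 with all its libraries. The call in REH was lost with the replicate number as a block (adjusted p = 0.0948), with DESeq2 (0.0519), with library size alone (0.0523), in the 1 fit over the 18 samples (0.134), and without any 1 of 5 of the 6 libraries (0.0592 to 0.148, all but *SOX11* siRNA replicate 2).

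A fit over all 18 samples with the line as a covariate, added after the data had been seen, estimated 1 effect for the 3 lines. Of 14026 genes, 1142 (8.14%) passed in that fit. *HNRNPA3* rose by 0.12 ± 0.02 on the log2 scale, which is 8.92% (adjusted p = 0.000763). This call held in each of the 18 fits that left out a library, with estimates of 0.11 to 0.13, and in the fit with the replicate block (adjusted p = 0.00732). The effect on *HNRNPA3* did not pass a test of difference between lines (interaction adjusted p = 0.715, where 0.734% of genes passed).

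*HNRNPA2B1*, which encodes the A2 and B1 proteins and binds many of the same RNA sequences as *HNRNPA1*, was the most abundant member. It lies on chromosome 7 of hg19 from 26210771 to 26241149. In 697 it had 2915.1, 2868.1 and 2988.4 CPM with *SOX11* siRNA against 2624.3, 2624.8 and 2670.3 CPM with control siRNA. REH had 2938.0, 3033.5 and 2975.6 CPM against 2919.9, 2883.4 and 2844.5 CPM, and RCH-ACV 3178.5, 3235.6 and 2932.5 CPM against 3057.7, 3229.8 and 3226.0 CPM. The groups were apart in 697 and REH, with the *SOX11* siRNA samples above, and overlapped in RCH-ACV. The share of all genes whose groups are apart within a single line was not counted, here or for *HNRNPA0* and *HNRNPC* below. No line passed the test, with log2 fold changes of 0.15 ± 0.03 in 697 (adjusted p = 0.0894), 0.05 ± 0.03 in REH (0.358) and -0.03 ± 0.04 in RCH-ACV (0.742). In 697 the adjusted p was 0.0318 without the filter on low counts and 0.0224 in 1 fit over the 18 samples. These fits passed 119 and 189 genes in 697, against 68. The lines did not differ past the threshold (interaction adjusted p = 0.212), and the common effect was 0.06 ± 0.02 (adjusted p = 0.177), or 0.07 without RCH-ACV *SOX11* siRNA replicate 3 (adjusted p = 0.0435).

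*HNRNPA0*, an intronless gene whose protein binds AU-rich mRNAs, was a little lower on average in each line. The levels were 514.8, 519.4 and 508.1 CPM against 507.1, 540.8 and 545.2 CPM in REH, 372.9, 375.4 and 346.2 against 375.0, 390.1 and 386.4 CPM in 697, and 426.0, 409.7 and 404.5 against 432.5, 431.3 and 439.9 CPM in RCH-ACV. Only in RCH-ACV did the groups not overlap. The log2 fold changes of -0.05 ± 0.03, -0.07 ± 0.05 and -0.07 ± 0.04 did not pass (adjusted p = 0.541, 0.802 and 0.270), and the common effect of -0.07 ± 0.02 did not either (adjusted p = 0.0717). It passed without REH control replicate 1 (adjusted p = 0.0389).

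Set side by side as reads, *HNRNPA1* and *HNRNPA1P10* together had 70.9 CPM fewer on average with *SOX11* siRNA in REH, where *HNRNPA2B1* and *HNRNPA3* together had 132.0 CPM more. In 697 the first pair had 216.5 CPM fewer and the second pair 334.6 CPM more. In RCH-ACV both sums were lower, the first by 117.2 CPM and the second by 29.4 CPM, and the second sum overlapped between the groups. The second pair was put together after its values were seen, and with *HNRNPA0*, the third A-type relative, the sum differed from control by 115.1 CPM in REH, 315.5 CPM in 697 and -50.6 CPM in RCH-ACV. The sum over all 10 members was 9257.6 ± 70.7 CPM (SD, n = 3) in REH controls and 9242.9 ± 71.2 CPM after knockdown, 8591.5 ± 45.1 against 8725.9 ± 41.7 CPM for 697, and 9549.1 ± 219.8 against 9237.2 ± 225.7 CPM for RCH-ACV. These sums count reads, not molecules, and they leave out the reads that were discarded, which can be of *HNRNPA1* and also of *HNRNPA3*. No test was made on them.

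**Figure D2:**
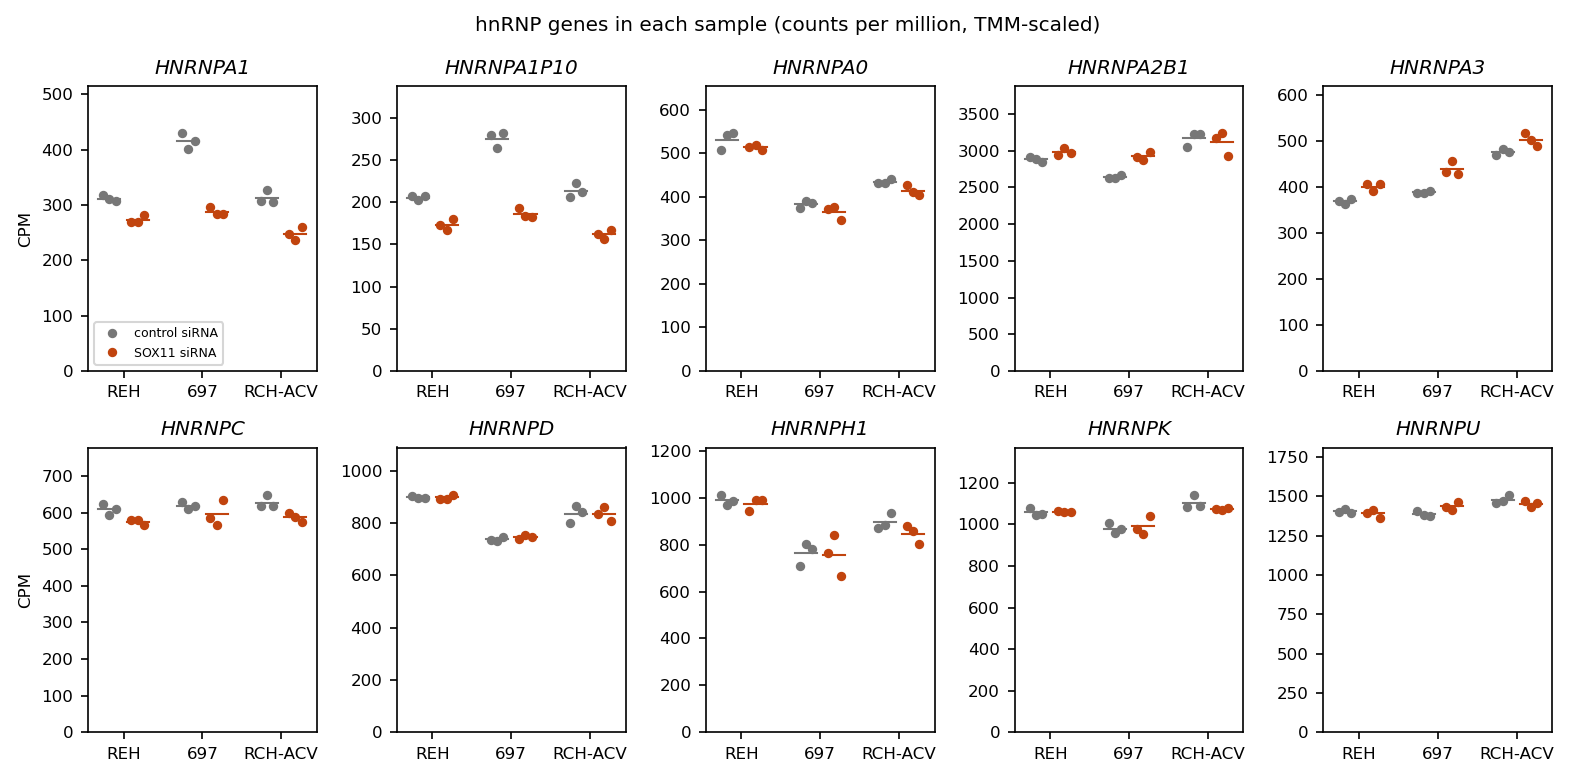
Each panel plots CPM (TMM-scaled within a line, axis from 0) of 1 gene in the 18 samples, with control siRNA in grey, *SOX11* siRNA in orange and group means of 3 as short lines. *HNRNPA1* and *HNRNPA1P10* lie lower with *SOX11* siRNA in each line, *HNRNPA3* lies higher in each line, *HNRNPA2B1* lies higher in REH and 697, and the other members lie close to their controls.

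Of the 8 relatives, 1 passed in REH (*HNRNPA3*), where 4.62% of all genes tested passed. None passed in 697, where 0.559% of genes did, or in RCH-ACV, where 7.51% did. An unadjusted p under 0.05 was found for 2 of the 8 in REH, 2 in 697 and 1 in RCH-ACV, where 16.8%, 8.24% and 22.5% of all genes tested had one. DESeq2 called 0 of the 8 in each line. Their median log2 fold change was -0.007 in REH, 0.015 in 697 and -0.032 in RCH-ACV, beside medians of -0.002, -0.004 and 0.005 over all genes tested. The range over the 8 was -0.08 to 0.12 in REH, -0.07 to 0.18 in 697 and -0.09 to 0.08 in RCH-ACV.

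*HNRNPC* was 579.5, 579.3 and 565.5 CPM against 622.5, 592.4 and 610.5 CPM in REH and 599.8, 588.2 and 575.5 against 617.1, 647.9 and 616.8 CPM in RCH-ACV. In both lines the *SOX11* siRNA samples were below the controls, whereas in 697 the values of 584.3, 566.8 and 633.4 CPM overlapped the control values of 629.2, 608.4 and 618.3 CPM. The log2 fold changes were -0.08 ± 0.03, -0.06 ± 0.05 and -0.09 ± 0.04 in REH, 697 and RCH-ACV (adjusted p = 0.161, 0.871 and 0.142). The common effect of -0.08 ± 0.02 passed narrowly (adjusted p = 0.0441). It was lost with the replicate block (adjusted p = 0.0795) and held in only 4 of 18 fits that left out a library, the other 14 giving up to 0.0983.

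*HNRNPD*, *HNRNPH1*, *HNRNPK* and *HNRNPU* did not pass in any line, nor in the common fit. *HNRNPD* ranged from 892.9 to 907.3 CPM with *SOX11* siRNA and from 896.2 to 902.8 CPM with control siRNA in REH, from 739.9 to 754.0 against 731.1 to 748.4 CPM in 697, and from 809.2 to 861.4 against 799.0 to 865.0 CPM in RCH-ACV. Its common effect was 0.00 ± 0.02 on the log2 scale. *HNRNPK* was at 100.4%, 101.1% and 97.4% of control and *HNRNPU* at 99.0%, 103.5% and 98.3% in REH, 697 and RCH-ACV. *HNRNPH1* was at 98.4%, 98.9% and 94.4%, and its replicates spread the most in 697, where the *SOX11* siRNA samples gave 762.3, 842.7 and 664.3 CPM. A p that misses the threshold does not show that these genes stayed level, and the SE of 0.03 to 0.08 on the log2 scale sets the size that could be seen.

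**Figure D3:**
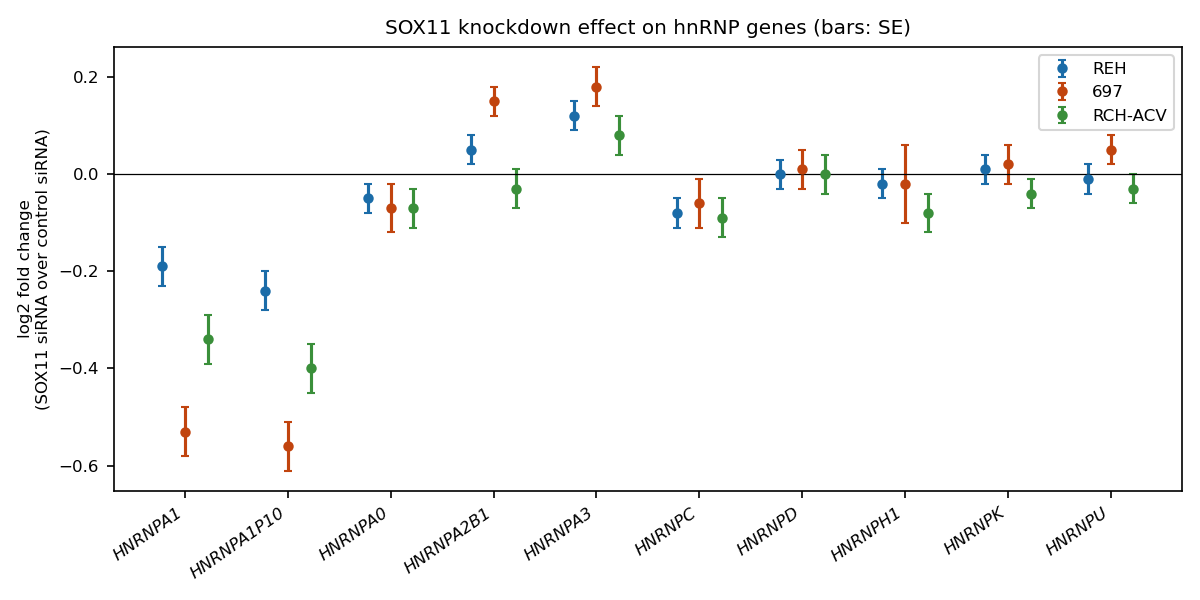
The plot gives the log2 fold change of *SOX11* siRNA over control siRNA (y axis) for the 10 members (x axis) in REH, 697 and RCH-ACV, with bars of 1 SE from the edgeR fit. *HNRNPA1* (-0.19, -0.53 and -0.34) and *HNRNPA1P10* lie below 0, *HNRNPA3* (0.12, 0.18 and 0.08) lies above 0, and the rest lie within 0.09 of 0 apart from *HNRNPA2B1* in 697 (0.15).

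Transcript rows were compared within the other members as well, as the share of reads that separates a row from another row of the same gene. The A2 and B1 rows of *HNRNPA2B1* differ by the reads of the small B1 exon, which made up 1.70% ± 0.007 (SD, n = 3) of the B1 row in REH controls and 1.73% ± 0.0311 with *SOX11* siRNA, 1.74% ± 0.0581 against 1.79% ± 0.0579 in 697, and 1.74% ± 0.111 against 1.71% ± 0.0682 in RCH-ACV. The exon 7 reads of *HNRNPD*, an exon that separates its larger from its smaller protein forms, made up 8.19% ± 0.208 of the longest row for REH controls and 8.46% ± 0.238 after knockdown, 8.70% ± 0.604 against 9.24% ± 0.350 for 697, and 7.67% ± 0.198 against 7.81% ± 0.306 for RCH-ACV. The gene *PKM*, whose choice between the M1 and M2 exons is a known target of hnRNP A1, hnRNP A2 and PTBP1, had an M2 excess of 5.58% ± 0.250 of the M2 row in REH controls and 5.51% ± 0.216 with *SOX11* siRNA. The *PKM* values were 6.34% ± 0.490 against 6.53% ± 0.188 for 697 and 6.08% ± 0.463 against 5.84% ± 0.392 for RCH-ACV, so the direction was not the same over the lines for the B1 exon or for *PKM*. Over 7 pairs of rows in 6 genes and 3 lines, which makes 21 two-sided exact permutation tests, 1 reached the smallest p that 3 against 3 samples allow, 0.1. That was a pair of *HNRNPK* rows in 697, which differed by 2.90% ± 0.0116 of the reads with control siRNA and 2.51% ± 0.213 with *SOX11* siRNA. The adjusted p over the 21 exact tests was at least 0.788, and the design could not reach 0.05.

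With control siRNA alone the members were compared between the lines. The choice of *HNRNPA1* and *HNRNPA1P10* used these same control samples, so their levels are given without a test. For these values CPM were scaled over all 18 samples. *HNRNPA1* stood at 433.0 ± 23.2 CPM (SD, n = 3) in 697, 312.0 ± 12.2 CPM in RCH-ACV and 298.8 ± 4.35 CPM in REH. The level in 697 was 1.45-fold that in REH and 1.38-fold that in RCH-ACV, and the other two lines lay within 1.05-fold of each other. The line with the highest *HNRNPA1* control level, 697, was also the line with the largest *HNRNPA1* decrease, and both values rest on the same control samples.

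*HNRNPA3* had another order, with 475.1 ± 5.88 CPM in RCH-ACV, 405.1 ± 8.61 CPM in 697 and 354.1 ± 2.86 CPM in REH. All 3 steps passed (edgeR adjusted p = 1.9e-05 for 697 against RCH-ACV, 8.8e-05 for REH against 697 and 4.52e-09 for REH against RCH-ACV). *HNRNPA2B1* was higher in RCH-ACV than in REH and in 697, by 0.20 and 0.21 on the log2 scale (adjusted p = 1.43e-05 and 1.56e-05), and *HNRNPA0* was highest in REH, 1.27-fold above 697 (adjusted p = 1.78e-07). Of the 8 relatives, 6 passed between each pair of lines, with folds of 1.08 to 1.35. Of all 13686 genes tested, 76.2% passed for REH against 697, 73.7% for REH against RCH-ACV, and 64.3% for 697 against RCH-ACV, so the relatives' counts lie near the background. Scaling by library size alone moved the median of all genes by -0.13 on the log2 scale for 697 over REH, and calls changed with it. *HNRNPA3* (log2 difference 0.06, adjusted p = 0.0852), *HNRNPC* (0.01, 0.728) and *HNRNPU* (-0.03, 0.317) no longer passed, while *HNRNPA2B1* (-0.14, 0.000225) and *HNRNPK* (-0.12, 0.00179) came to pass. For RCH-ACV over REH the same scaling lost *HNRNPC* (0.03, 0.352) and *HNRNPK* (0.05, 0.135) and gained *HNRNPD* (-0.11, 0.00431) and *HNRNPH1* (-0.15, 0.00517), and for RCH-ACV over 697 it gained *HNRNPU* (0.09, 0.00501).

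Per length of the annotated canonical transcript (RPKM, which is CPM per kilobase), *HNRNPA2B1* led in each line, with 761.8 ± 10.9 in REH, 758.2 ± 15.8 in 697 and 871.5 ± 25.2 in RCH-ACV. *HNRNPH1* (423.3 ± 6.76 RPKM in REH) and *HNRNPK* (350.8 ± 5) followed, then *HNRNPD* (280.8 ± 1.48), *HNRNPU* (196.1 ± 3.11) and *HNRNPC* (184.3 ± 3.53). *HNRNPA1* (79.8 ± 1.16 RPKM in REH), *HNRNPA3* (62.0 ± 0.5) and *HNRNPA0* (58.4 ± 2.48) were the lowest. *HNRNPH1* and *HNRNPK* did not differ beyond their spread in 697 (355.4 ± 15.9 and 353.5 ± 15.4 RPKM), nor did *HNRNPA1* and *HNRNPA3* in RCH-ACV (83.3 ± 3.27 and 83.2 ± 1.03 RPKM). The *HNRNPA1* value may be low by an unknown amount, since reads with at least 2 other matches were discarded. The same limit applies to *HNRNPA3*, *HNRNPC* and *HNRNPK*, where 18.8%, 10.2% and 3.0% of 50-base windows had at least 2 other matches (36.8% for *HNRNPA1*). The deposited tables give no transcript length. Reads were counted over RefSeq transcripts but divided by the length of GENCODE canonical transcripts, and the 2 need not be the same transcript. Another annotated length would shift these levels and could change the order of the genes, *HNRNPA1*, *HNRNPA3* and *HNRNPA0* included.

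**Figure D4:**
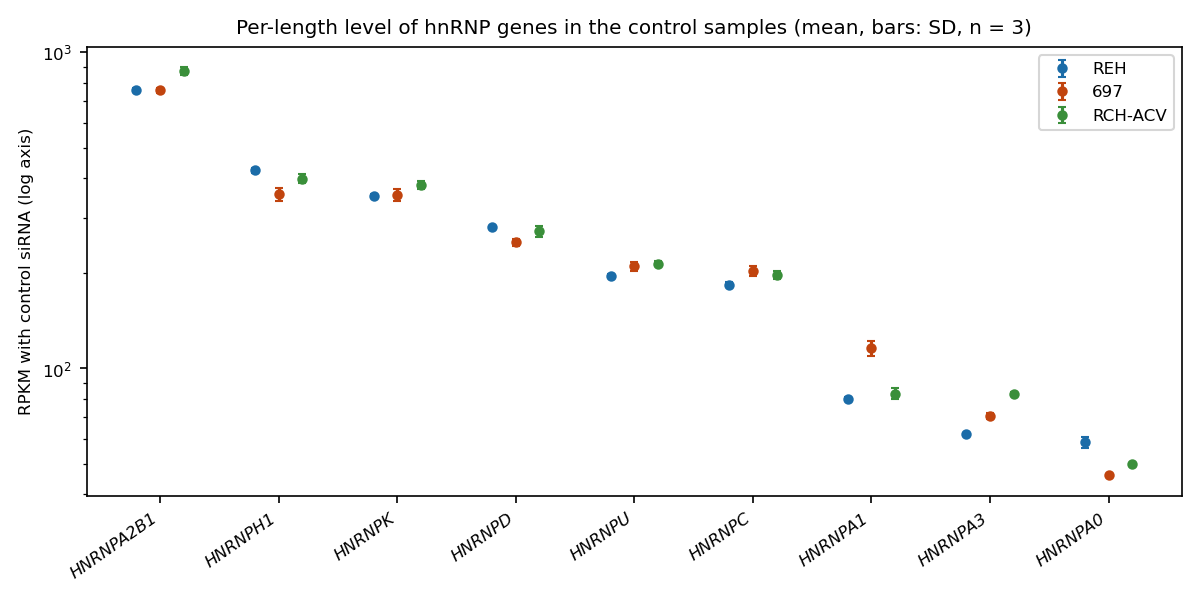
The plot gives RPKM with control siRNA (log axis; mean and SD of 3 samples) for 9 members in REH, 697 and RCH-ACV, ordered by their mean, with *HNRNPA1P10* left out. *HNRNPA2B1* lies highest at 758.2 to 871.5 RPKM, *HNRNPA1* lies higher in 697 (115.7) than in REH (79.8) and RCH-ACV (83.3), and *HNRNPA3* and *HNRNPA0* lie lowest.

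A wider list of hnRNP and related RNA-binding genes gave 26 genes that are reported here and could be tested in each line. None of these 26 passed in a line with edgeR. With an unadjusted p under 0.05 there were 4 in REH, 5 in 697 and, for RCH-ACV, 4, beside 16.8%, 8.24% and 22.5% of all genes, and DESeq2 called 0. Their log2 fold changes had a median of 0.005 for REH, of 0.007 for 697 and of -0.024 for RCH-ACV. In the common fit 1 of the 26 passed upward and 1 downward, beside 8.14% of all genes in either direction, so this count lies near the background. *HNRNPDL*, a paralog of *HNRNPD*, fell by 0.08 (adjusted p = 0.0445) and *TAF15*, an RNA-binding protein that associates with the transcription machinery, rose by 0.08 (adjusted p = 0.0498). These calls held in 3 and 4 of 18 fits without a library and in neither case with the replicate block (adjusted p = 0.0765 and 0.120). That of *HNRNPDL* was also lost with library size alone (0.0865) and that of *TAF15* with RLE scaling (0.0619). By the mean over all 18 samples, the highest of the 26 per length were *NONO*, a paraspeckle protein, at 248.2 to 277.9 RPKM with control siRNA, and *PCBP1*, a poly(C)-binding relative of *HNRNPK*, at 177.2 to 297.4 RPKM. The order differed between lines, and in REH *PCBP1* (177.2 RPKM) lay below *HNRNPM* (268.1 RPKM).

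Of 14 SR splicing protein genes, the counterparts of hnRNPs in exon choice, only *SRSF12* passed, and only in REH, where 4.62% of genes did. It fell from 8.99 ± 1.10 to 6 ± 1.14 CPM (log2 fold change -0.54 ± 0.15, adjusted p = 0.0445). In REH controls it stood at 2.5 RPKM, where *SRSF1* had 207.3 RPKM and *SRSF2* had 313.6 RPKM, the highest of the list by the mean over all 18 samples. The call was lost with DESeq2 (adjusted p = 0.210), in 1 fit over the 18 samples (0.175) and without any 1 of 5 of the 6 libraries (up to 0.187, all but *SOX11* siRNA replicate 1). *SRSF12* was too low to be tested in 697 and RCH-ACV. In REH 2 of the 14, *SRSF12* among them, had an unadjusted p under 0.05 (16.8% of all genes). Of the 13 other genes of the list, 0 had one in 697 (8.24% of all genes) and 4 did in RCH-ACV (22.5%), and DESeq2 called 0. None of 7 genes of hnRNP import and arginine methylation (*TNPO1*, *TNPO2*, *TNPO3*, *PRMT1*, *PRMT5*, *CARM1* and *PRMT6*) passed in any line with edgeR, with 2 of 7 under an unadjusted p of 0.05 in REH (16.8% of all genes) and 0 in the other lines, and DESeq2 called 0. *PRMT1*, which methylates arginines of *HNRNPA1* and its relatives, was the highest of them at 191.3 to 258.1 RPKM, followed by *PRMT5* at 72.9 to 93.6 RPKM.

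Of the other *HNRNPA1*-like loci in the tables, *HNRNPA3P1* (0 to 6 counts per sample) and *HNRNPA1P33* (0 to 1) were too low to test. *HNRNPA1L2*, an intronless *HNRNPA1*-like gene, had 54 to 147 counts per sample. Its sequence was not searched for other matches, so whether reads of *HNRNPA1* enter these counts was not tested. *HNRNPA1L2* was at 9.43 ± 1.06 CPM in RCH-ACV controls and 7.06 ± 0.306 CPM after knockdown (log2 fold change -0.43 ± 0.14, adjusted p = 0.0666). In REH (0.05 ± 0.11) and 697 (0.00 ± 0.15) its groups overlapped. The 95% intervals of these log2 fold changes, -0.17 to 0.26 in REH and -0.3 to 0.3 in 697, leave room for a small decrease.

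Genes were also ordered by how closely they tracked *HNRNPA1* over the 18 samples, as the Pearson correlation of log2 CPM after the mean of each line was taken off. The points share the split into *SOX11* and control siRNA, so a high value mainly ranks genes that differ between these groups in the same proportions, and no p is given. Among the 9639 genes that averaged 10 CPM or more, the 5 most like it were *WDR1* (r = 0.969), *WDTC1* (0.967), *SNX1* (0.965), *CGGBP1* (0.964) and *CANT1* (0.958). *WDR1*, which helps to disassemble actin filaments, changed by -0.34, -1.04 and -0.65 on the log2 scale in REH, 697 and RCH-ACV, and *SNX1*, a sorting nexin of the retromer, by -0.16, -0.41 and -0.27. All 5 had their largest decrease in 697, as *HNRNPA1* did. *HNRNPA1P10*, which was left out of the ordering because its reads can come from *HNRNPA1*, gave r = 0.994. Among the relatives *HNRNPC* (0.641, place 603) and *HNRNPA0* (0.622, place 661) were on the side of *HNRNPA1*. *HNRNPD* (-0.132), *HNRNPK* (0.131) and *HNRNPH1* (0.190) were nearer 0. *HNRNPA2B1* (-0.637, place 9338) and *HNRNPA3* (-0.873, place 9629) stood at the opposite end, and *HNRNPU* (-0.271, place 7286) lay between these groups.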

How the data were processed

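The authors trimmed and filtered reads, mapped them on hg19 using STAR 2.5.3a, discarded reads at more than 2 locations, and counted them with HOMER. The deposited tables, 1 per line, hold raw counts per RefSeq transcript for 18 samples and 0 columns of other samples. Whether counting used strand, and the read length, are not given in the sources used here. Of 50678 transcripts 98.0% matched a symbol, and the transcript with the highest total was kept per gene.

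Each line was tested with edgeR 4.0.16 (R 4.3.3; TMM, filterByExpr, quasi-likelihood F-test, Benjamini-Hochberg threshold 0.05). Interaction and common-effect fits used 18 samples, and control levels the 9 controls (*HNRNPA1* and *HNRNPA1P10* described only). RPKM used canonical transcript lengths of GENCODE lifted to hg19, not those of the RefSeq transcripts that were counted. Windows of 50 bases were matched exactly to the unspliced GRCh37 genome. Alternatives were DESeq2 1.42.0, RLE or library-size scaling, other filters, a replicate block, other transcript choices, 1 fit over the 18 samples, and leaving out each library. The fit within a line was also run on simulated counts with 1 fixed spread and with changes larger than those of *HNRNPA3*. That run does not bear on changes as small as those of the relatives. Figures used matplotlib 3.10.9.

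Members and lists were chosen with earlier results of these data known. All members are named. Genes of the other lists are named where they passed in a line or in the common fit, with the 2 highest per length and the 5 genes most like *HNRNPA1*; *HNRNPA1L2* and *PKM* were also looked up. Counting precision depends on depth (7039505 to 16592565 counts), and intervals over replicates include it. Some genes and sequences are not reported here, and list counts and sums leave those genes out.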

Additional observations from a re-analysis of the deposited data

How the results depend on the processing

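The direction of *HNRNPA1*, *HNRNPA1P10* and *HNRNPA3* was the same in every line under each alternative run. The number of genes passing varied more. With DESeq2 it was 317 in REH and 555 in RCH-ACV, against 591 and 973. With all transcripts kept apart, which repeats reads, it rose to 1513, 227 and 2597 for REH, 697 and RCH-ACV. With 1 fit over the 18 samples it was 226 in REH and 189 in 697, against 68 in 697. Without a filter on low counts it was 119 in 697 and 276 for the difference between lines, against 103. Without a library it ranged from 296 to 522 in REH, 25 to 70 in 697, 386 to 2479 in RCH-ACV (2479 without *SOX11* siRNA replicate 3) and 56 to 177 between lines. The cause was not tested.

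With the replicate number as a block the counts were 29 in 697, 42 between lines and 744 for the common effect, against 1142. Neither the labels nor the study's methods say whether same-numbered samples belong together, and no clear pairing by number was seen in the values. The correlation of same-numbered samples' deviations lay between -0.266 and 0.275 over the lines. The samples that correlated best with their own number were 2 of 6 in 697 and 0 of 6 in each other line. This does not show that the samples were handled apart.

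Some log2 values near 0 changed sign, without passing except where said. *HNRNPD* came to 0.00 in REH with RLE scaling or DESeq2 and -0.00 in RCH-ACV with all transcripts kept apart, *HNRNPK* to -0.00 in REH with library size alone, and *HNRNPU* to -0.00 over the lines with RLE scaling. For 697 over REH controls, *HNRNPA2B1* came to 0.00 with RLE scaling or DESeq2, and with library size alone *HNRNPK* to -0.12 (which passed) and *HNRNPU* to -0.03. With library size alone *HNRNPA1* came to -0.00 for RCH-ACV over REH, and *HNRNPC* to 0.02 for RCH-ACV over 697. Leaving out libraries gave, in REH, *HNRNPD* -0.01 to 0.00, *HNRNPH1* -0.04 to 0.00, *HNRNPK* -0.00 to 0.02 and *HNRNPU* -0.03 to 0.00; in 697, *HNRNPH1* -0.09 to 0.07 and *HNRNPK* -0.02 to 0.05; in RCH-ACV, *HNRNPA2B1* -0.05 to 0.01 and *HNRNPD* -0.03 to 0.03. Over the lines it gave *HNRNPD* -0.00 to 0.01, *HNRNPK* -0.02 to 0.00 and *HNRNPU* -0.01 to 0.01, and for 697 over REH controls *HNRNPA2B1* -0.02 to 0.01 and *HNRNPK* -0.01 to 0.04.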
